A study of Rattus norvegicus with 14 samples.

Results

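The AP-1 and Egr immediate early factors examined here were 10 genes chosen by symbol (Fos, Fosb, Jun, Junb, Jund, Egr1, Egr2, Egr3, Arc and Btg2) from a table of 16472 rat genes. A row was found for 9 of them, and none was found under the symbol Fosb. Transcript levels were measured by RNA sequencing in the pineal gland and the retina of Sprague-Dawley rats aged 6 to 8 weeks. The animals were lit for 14 h a day, followed by 10 h of dark, and zeitgeber time (ZT) counts hours from lights on. Each tissue had 1 library, made from a pool of 10 animals, at each of 3 times with lights on (ZT1, ZT7, ZT13) and 3 with lights off (ZT15, ZT19, ZT23). Both tissues therefore had 6 libraries. Pools of mixed tissue, made from 15 tissues of 3 animals with the retina among them, were collected at ZT7 and ZT19. The labels name no treatment or altered allele in any group. The comparisons asked how the members behaved in the retina after lights off and in the pineal gland at night.

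Immediate early genes are transcribed within minutes of a stimulus without new protein synthesis, and their transcripts are short-lived. Fos and Fosb encode proteins that pair with Jun, Junb or Jund to form AP-1, a transcription factor that binds the AP-1 site. Egr1, Egr2 and Egr3 encode zinc finger transcription factors, Arc encodes a protein of neuronal synapses, and Btg2 encodes an antiproliferative protein that takes part in mRNA deadenylation. Cyclic AMP signalling acts on many such genes through CREB at the cAMP response element, and growth factor and calcium signalling act through serum response factor at the serum response box. Norepinephrine released at night drives cyclic AMP in the rat pineal gland, while in the retina photoreceptors release more transmitter in darkness than in light.

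The starts of 4 members are shown because their transcripts carry the results below or share sites with one that does. Each sequence is the 250 bases before the gene start in RefSeq (build GRCr8), read 5′ to 3′ on the strand of the gene. Capitals mark every match, on either strand, to the cAMP response element (TGACGTCA), its core (TGACG), the serum response box or the Egr site (GCGNGGGCG). A whole element also contains the core, so both counts include it.
Egr1: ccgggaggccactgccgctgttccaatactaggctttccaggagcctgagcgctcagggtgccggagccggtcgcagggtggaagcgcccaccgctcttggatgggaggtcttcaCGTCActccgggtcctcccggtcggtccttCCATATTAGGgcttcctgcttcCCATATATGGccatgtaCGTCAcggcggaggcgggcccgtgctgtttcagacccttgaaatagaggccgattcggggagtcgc
Egr2: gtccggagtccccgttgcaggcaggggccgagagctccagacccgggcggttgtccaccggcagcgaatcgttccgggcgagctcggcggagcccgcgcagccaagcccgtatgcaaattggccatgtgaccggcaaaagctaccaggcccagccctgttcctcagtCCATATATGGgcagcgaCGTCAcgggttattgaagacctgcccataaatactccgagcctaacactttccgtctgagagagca
Junb: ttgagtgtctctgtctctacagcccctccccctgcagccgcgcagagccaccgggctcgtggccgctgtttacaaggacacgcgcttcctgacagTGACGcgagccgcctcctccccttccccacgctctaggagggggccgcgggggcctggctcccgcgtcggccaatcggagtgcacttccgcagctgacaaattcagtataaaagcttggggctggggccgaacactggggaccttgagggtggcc
Btg2: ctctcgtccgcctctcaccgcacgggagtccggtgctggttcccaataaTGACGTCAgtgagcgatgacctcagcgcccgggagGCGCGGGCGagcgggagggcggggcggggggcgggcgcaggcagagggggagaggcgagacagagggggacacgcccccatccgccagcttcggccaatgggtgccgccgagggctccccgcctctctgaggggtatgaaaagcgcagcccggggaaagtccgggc
The Egr1 window (chr18:26736828-26737077, plus strand) held serum response boxes beginning 105 and 83 bases before the gene start and cores at 135 and 66. The Egr2 window (chr20:21054442-21054691, minus strand) held a serum response box at 83 and a core at 66, the same distances as in Egr1. The Junb window (chr19:40080876-40081125, plus strand) held a core at 155. The Btg2 window (chr13:48087691-48087940, minus strand) held a whole cAMP response element at 201 and an Egr site at 166.

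A promoter window of 300 bases, which also takes in 50 bases after the start, was available for 6 of the 10 members (Fosb, Junb, Jund, Egr1, Egr2 and Btg2). A serum response box lay in 2 of the 6 (Egr1 and Egr2) and in 1.64% of 33469 windows of the same length. A whole cAMP response element lay in 2 of the 6 (Jund and Btg2) and in 1.83% of all windows. The core lay in 5 of the 6 and in 21.2% of all windows, and the Egr site lay in 2 of the 6 (Jund and Btg2) and in 4.98%. The AP-1 site (TGANTCA, either strand) lay in none of the 6 windows and in 7.33% of all. These matches describe letters and say nothing of binding.

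The level of a gene is given as FPKM, the number of fragments scaled by transcript length and by library size, so levels can be compared between genes. A gene was tested if it reached 1 FPKM in at least 2 of the 12 pineal and retina libraries, which 10416 genes did. Of the members, Fos, Jun, Junb, Jund, Egr1 and Btg2 passed, and Egr2, Egr3 and Arc did not. The tests used limma on log2(FPKM + 1), a scale that understates the change of weakly expressed genes, and Benjamini-Hochberg adjustment over all genes tested with a threshold of 0.05. Light means ZT1, ZT7 and ZT13, late dark means ZT19 and ZT23, and ZT15 had a mean of its own. Because each tissue and time had 1 library, the error is the spread between times of a phase, and both tissues share 1 error for each gene. In the test of the tissues over the day, the error is the spread over all times of a tissue, light and dark together. The p-values measure no more than these spreads. In whole tissue, a change in the share of a cell type and a change in RNA per cell cannot be told apart.

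Exact depth is unknown, since the values are FPKM. By a rough estimate from olfactory receptor transcripts, a single fragment over 1 kb was worth 0.0216 FPKM in the deepest library (retina ZT23) and 0.0530 FPKM in the shallowest (pineal ZT19). The tissue labels were checked against marker sums. The 7 rod photoreceptor markers with a row summed to 14168 to 18633 FPKM in the retina and to 60.1 to 371 FPKM in the pineal gland. Pinealocyte markers, some of which the retina also expresses, summed to 5077 to 5700 FPKM in the pineal gland and to 2784 to 3899 FPKM in the retina. Lens markers (6 of 10 with a row) stood apart in the retina at ZT1 and ZT19, with sums of 516 and 1312 FPKM against 77.3 to 219 FPKM in the other 4 retina libraries and at most 8.00 FPKM in any pineal library.

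Egr1 (gene ID 24330, chromosome 18, 27343919 to 27346117 in build rn4) covered the widest range of any member. In the retina its level was 47.3 FPKM at ZT1, 4.19 at ZT7, 11.3 at ZT13, 600.1 at ZT15, 299 at ZT19 and 170 FPKM at ZT23. All 3 dark libraries lay above all 3 light libraries, and the highest level was 143-fold the lowest. In the pineal gland Egr1 was at 7.31 FPKM at ZT1, 6.11 at ZT7, 5.35 at ZT13, 5.39 at ZT15, 19.4 at ZT19 and 10.6 FPKM at ZT23. The pineal level at ZT15 lay within the light range, and only ZT19 and ZT23 lay above it. At ZT15 the retina held 111-fold the pineal level of Egr1, and at ZT7 it held 0.685 of it.

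Fos (gene ID 314322, chromosome 6, 109559135 to 109562001) followed the same order in the retina at lower levels. It was at 19.6 FPKM at ZT1, 3.78 at ZT7, 4.14 at ZT13, 51.0 at ZT15, 47.0 at ZT19 and 25.1 FPKM at ZT23. The 3 dark libraries again lay above the 3 light libraries, although ZT23 was only 1.28-fold the ZT1 level. In the pineal gland Fos stayed between 10.9 FPKM (ZT15) and 17.2 FPKM (ZT1), a 1.58-fold range in which light and dark overlapped. The pineal level was the higher one at ZT7 (3.21-fold) and ZT13 (2.67-fold), and the retinal level was the higher one at ZT15 (4.69-fold), ZT19 (3.80-fold) and ZT23 (1.91-fold).

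**Figure D1:**
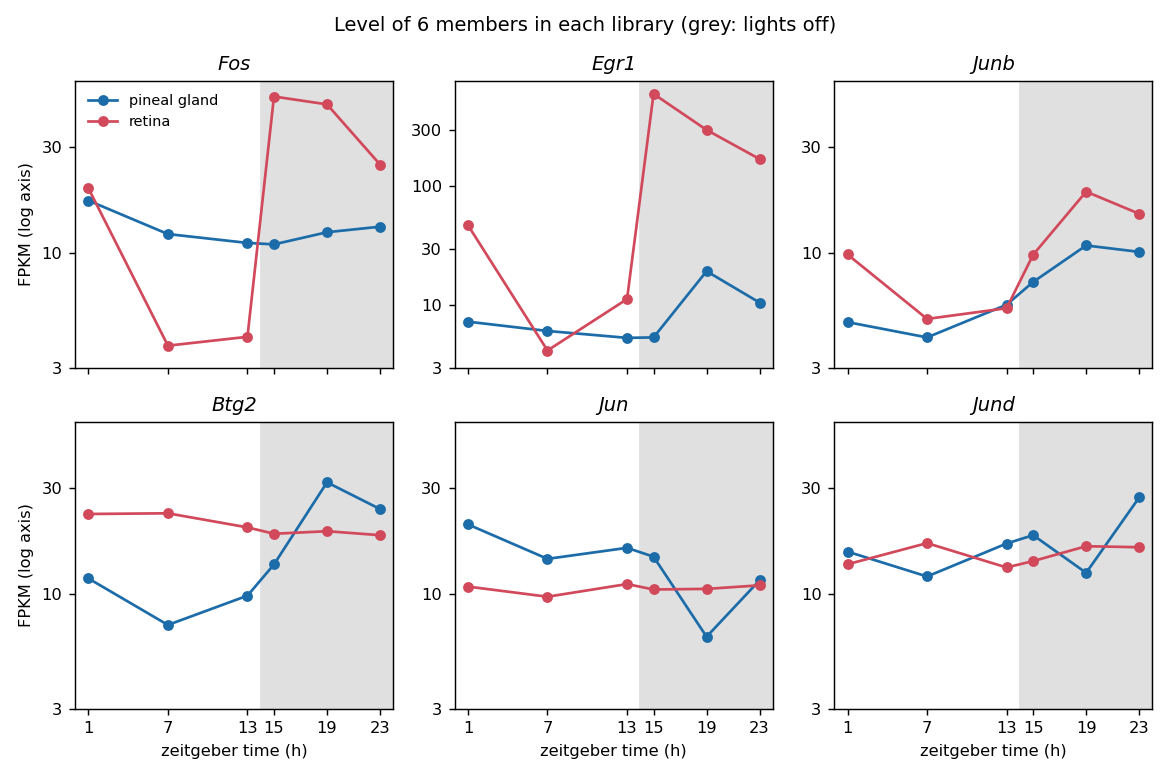
Level of Fos, Egr1, Junb, Btg2, Jun and Jund in FPKM (log axis, with a wider range for Egr1) against zeitgeber time in hours; each point is 1 library, and grey marks lights off. Retinal Fos and Egr1 stand at 51.0 and 600.1 FPKM at ZT15 while the pineal values stay at 10.9 and 5.39 FPKM, and pineal Btg2 is highest at ZT19 with 32.0 FPKM.

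Junb (gene ID 24517, chromosome 19, 24831536 to 24833320) encodes an AP-1 subunit, and its level was highest at ZT19, in the middle of the night, in both tissues. Its retinal level was 9.80 FPKM at ZT1, 4.995 at ZT7, 5.59 at ZT13, 9.77 at ZT15, 18.9 at ZT19 and 15.0 FPKM at ZT23. Its pineal level was 4.83 FPKM at ZT1, 4.12 at ZT7, 5.79 at ZT13, 7.35 at ZT15, 10.8 at ZT19 and 10.1 FPKM at ZT23. Late dark lay above light in both tissues, and ZT15 lay above light in the pineal gland but overlapped ZT1 in the retina. The highest retinal Junb value came from the library with the highest lens sum (ZT19), and the part of lens tissue in it was not tested.

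Btg2 (gene ID 29619, chromosome 13, 47026986 to 47030745) moved in the pineal gland. It was at 11.7 FPKM at ZT1, 7.20 at ZT7, 9.78 at ZT13, 13.6 at ZT15, 32.0 at ZT19 and 24.2 FPKM at ZT23, so that all 3 dark libraries lay above light. In the retina it was at 22.97 FPKM at ZT1, 23.1 at ZT7, 19.97 at ZT13, 18.7 at ZT15, 19.2 at ZT19 and 18.4 FPKM at ZT23. The retinal dark values all lay below the light values, within a 1.26-fold range. The retina held 3.21-fold the pineal level at ZT7, and the pineal gland held 1.67-fold the retinal level at ZT19.

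Jun and Jund encode further AP-1 subunits that pair with Fos proteins. Jun (gene ID 24516, chromosome 5, 115358167 to 115361259) was at 20.6 FPKM at ZT1, 14.4 at ZT7, 16.1 at ZT13, 14.7 at ZT15, 6.37 at ZT19 and 11.5 FPKM at ZT23 in the pineal gland. Its retinal level stayed between 9.68 and 11.0 FPKM, a 1.14-fold range. Late dark Jun thus lay below light in the pineal gland and overlapped it in the retina. Jund (gene ID 24518, chromosome 16, 19239694 to 19241529) ranged from 11.95 FPKM (ZT7) to 27.3 FPKM (ZT23) in the pineal gland and from 13.1 to 16.9 FPKM in the retina, with light and dark overlapping in both.

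Egr2 (gene ID 114090, chromosome 20, 21883885 to 21888177), Egr3 (gene ID 25148, chromosome 15, 50477453 to 50479909) and Arc (gene ID 54323, chromosome 7, 112771937 to 112775381) stayed below 0.3 FPKM in every pineal and retina library. Egr2 in the retina was at 0.0452 FPKM at ZT1, 0.00866 at ZT7, 0.0118 at ZT13, 0.0804 at ZT15, 0.0570 at ZT19 and 0.0630 FPKM at ZT23. The 3 dark libraries lay above light, at levels where few fragments stand behind a value. Pineal Egr2 lay between 0.108 and 0.191 FPKM, Egr3 lay between 0.0188 and 0.157 FPKM over both tissues, and Arc lay between 0.0202 and 0.278 FPKM. Arc reached 5.85 FPKM in the mixed pool of ZT7 and 3.38 FPKM in that of ZT19, and Egr3 reached 1.63 and 1.71 FPKM, above every pineal and retina library. Mixed tissue held 14.6 FPKM of Egr1 by day and 44.9 FPKM by night. Junb went the other way, from 27.5 FPKM at ZT7 to 13.2 FPKM at ZT19, as did Fos, from 16.5 to 9.47 FPKM.

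**Figure D2:**
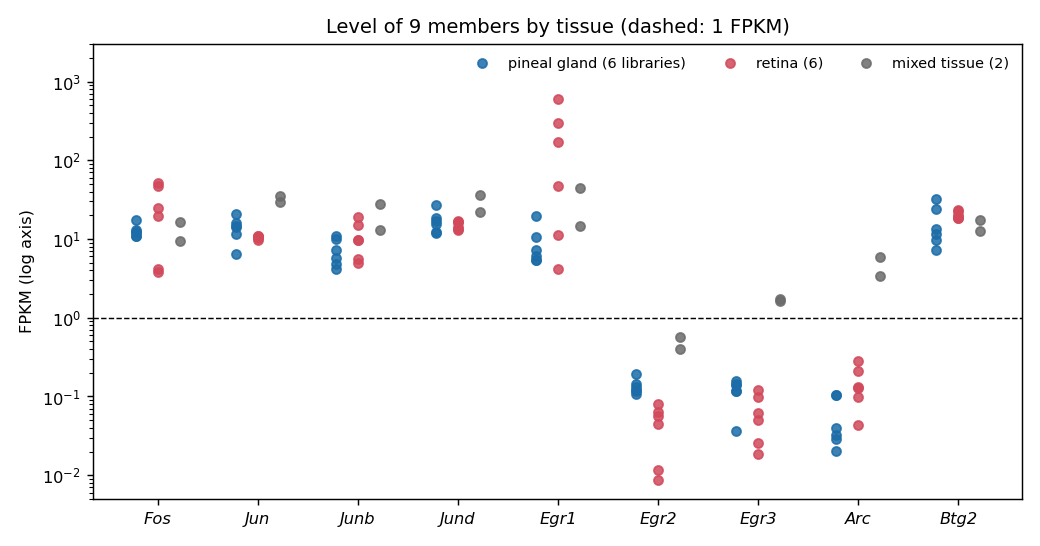
Level of the 9 members with a row, in FPKM on a log axis, with 1 point per library (6 pineal, 6 retina and 2 mixed tissue); the dashed line is 1 FPKM. Egr1 in the retina spans 4.19 to 600.1 FPKM, and Egr2, Egr3 and Arc lie under 1 FPKM in both tissues.

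The order of mean levels over the day differed between the tissues. In the retina it ran from Egr1 (189 ± 231 FPKM, SD, n = 6) through Fos (25.1 ± 20.4), Btg2 (20.4 ± 2.13), Jund (15.1 ± 1.65) and Junb (10.7 ± 5.40) to Jun (10.6 ± 0.488 FPKM). The means of Egr1 and Fos rest on the dark libraries. Btg2 and Jund did not overlap in any retina library, and every other pair of neighbours in this order did. The pineal order was Jund (17.1 ± 5.60 FPKM), Btg2 (16.4 ± 9.61), Jun (13.9 ± 4.76), Fos (12.8 ± 2.32), Egr1 (9.02 ± 5.45) and Junb (7.15 ± 2.76 FPKM). All neighbours in the pineal order overlapped.

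Over the day 1 of the 6 tested members differed between the tissues, where 72.6% of all genes tested did (33.7% were lower in the pineal gland). Egr1 was lower in the pineal gland than in the retina by a log2 difference of -2.89 (SE 0.96, limma adjusted p = 0.0140, 10 error degrees of freedom). The retinal level was the higher one at 5 of 6 times, ZT7 being the exception. Without the retina libraries of ZT1 and ZT19 together this call was lost (-2.48, adjusted p = 0.0592), and over all alternatives its adjusted p ran from 0.00116 to 0.0592. Fos (-0.39, adjusted p = 0.521), Junb (-0.45, 0.178), Btg2 (-0.46, 0.138), Jun (0.30, 0.173) and Jund (0.13, 0.491) did not pass. Jun and Btg2 did pass without the pineal ZT19 library, at 0.49 (adjusted p = 0.00140) and -0.68 (adjusted p = 0.0110). Junb passed when time of day was fitted as a block (-0.45, limma adjusted p = 0.00733).

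The step across lights off is the change from ZT13 to ZT15, 2 hours apart with 1 library at each end in each tissue, so it has no error of its own. In the retina the level of Egr1 at ZT15 was 53.0-fold that at ZT13 (a log2 difference of 5.61), the second largest increase among 10416 genes. Fos was 12.3-fold higher (3.34) and had the third largest, and Junb was 1.75-fold higher (0.71) and ranked 26. Only 9 genes (0.0864%) increased at least 2-fold in that step, as measured on the log2(FPKM + 1) scale. Over the same hours in the pineal gland the log2 difference was 0.01 for Egr1, -0.02 for Fos and 0.30 for Junb. Btg2 had a pineal step of 0.43 and a retinal step of -0.09.

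**Figure D3:**
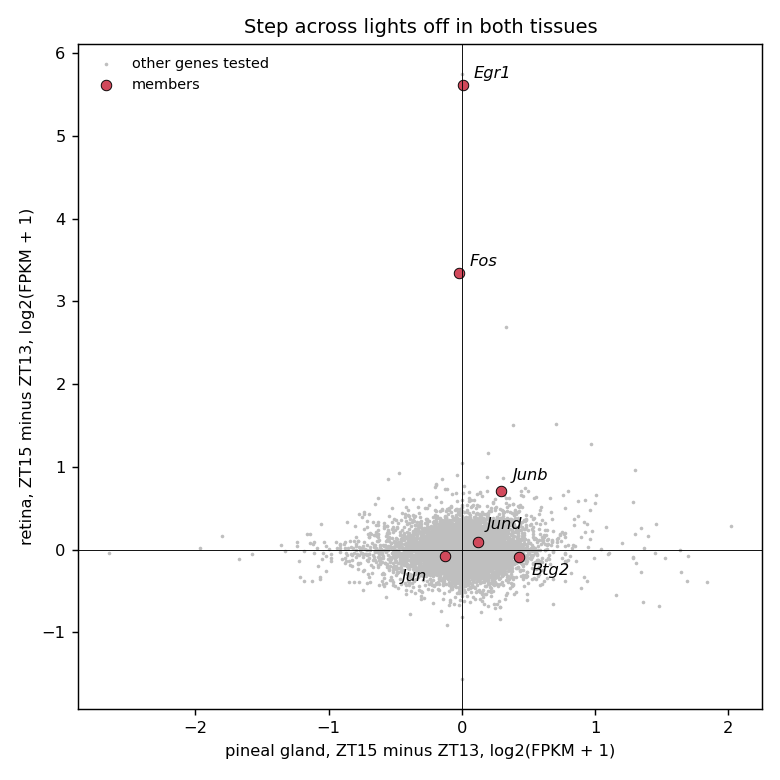
Step from ZT13 to ZT15 in the retina (vertical) against the same step in the pineal gland (horizontal), both as differences in log2(FPKM + 1), for 10416 genes in grey and the 6 tested members in red. Egr1 and Fos lie at 5.61 and 3.34 in the retina and near 0 in the pineal gland.

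Retinal Egr1 had also increased before lights off, by 1.25 on the log2 scale from ZT7 to ZT13, the fourth largest increase of all genes in that step, while Fos changed by 0.11. The steps after ZT15 were downward for both genes. From ZT15 to ZT19 retinal Egr1 went to 0.498 of its level and Fos to 0.921, and by ZT23 they stood at 0.283 and 0.491 of ZT15. From ZT23 to ZT1, across lights on, Egr1 had the second largest decrease of all genes (-1.82 on the log2 scale). From ZT1 to ZT7 Egr1 again had the second largest (-3.22), Fos the seventh (-2.11), and Junb ranked 55 (-0.85). At ZT1, 1 h after lights on, retinal Egr1 was thus still 11.3-fold and Fos 5.18-fold above ZT7. In the pineal gland Egr1, Btg2 and Jun had their largest step between neighbouring times later, from ZT15 to ZT19, when Egr1 increased by 1.68 (rank 94 among rises), Btg2 by 1.18 (rank 172), and Jun changed by -1.09 (rank 161 among falls). The largest pineal step lay from ZT23 to ZT1 for Junb (-0.92, against 0.49 from ZT15 to ZT19), from ZT19 to ZT23 for Jund (1.08) and from ZT1 to ZT7 for Fos (-0.47). The step from ZT15 to ZT19 ends in the shallowest library, pineal ZT19, in which the summed blood and vessel markers were also lowest, 581 FPKM against 899 to 1116 FPKM at the other times. Their part in the result was not tested.

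When ZT15 was tested against light, none of the 6 members passed in the retina, and none of the 10416 genes did (0% called by limma, with 187 genes, or 1.8%, at an unadjusted p under 0.05). Egr1 differed by 5.37 on the log2 scale (SE 0.87, 95% interval 3.46 to 7.28, adjusted p = 0.364), and Fos by 2.71 (SE 0.66, adjusted p = 1). Both were among the genes under 0.05 before adjustment. The call rested on retina ZT1, the light library in which both genes were intermediate. Without it Egr1 (6.23, adjusted p = 0.00343) and Fos (3.39, adjusted p = 0.00910) rose at ZT15, 2 of the 3 genes (0.0289%) then called among 10390. Over all alternatives the Egr1 difference ran from 4.62 to 6.23 with adjusted p from 0.00247 to 0.876. At ZT15 in the pineal gland again 0 of 10416 genes passed (0%, with 435 under 0.05 before adjustment). No member was under 0.05 there, and the differences ran from -0.26 (Fos) to 0.51 (Junb).

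The test of the difference between the tissues at ZT15 also called no gene (0% by limma, 299 under 0.05 before adjustment, 3 members among them). The retinal effect exceeded the pineal effect by 5.54 for Egr1 (adjusted p = 0.950) and by 2.97 for Fos (adjusted p = 0.999). Without retina ZT1 the Egr1 difference of 6.41 passed (adjusted p = 0.0454), the only gene of 10390 to do so (0.00962%). Without ZT1 of both tissues, an omission added after the data were seen, the difference was 6.30 for Egr1 and 3.47 for Fos.

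In the late dark, the pineal gland changed at 3 of its 6 tested members, where 7.28% of all genes passed. Btg2 rose by 1.47 on the log2 scale (SE 0.18, adjusted p = 0.00111), from 9.57 ± 2.26 FPKM in the light (SD, n = 3) to 28.1 ± 5.50 FPKM (SD, n = 2). Junb rose by 0.96 (SE 0.23, adjusted p = 0.0303), from 4.91 ± 0.842 to 10.4 ± 0.495 FPKM. Jun fell by 0.90 (SE 0.20, adjusted p = 0.0259), from 17.0 ± 3.21 to 8.93 ± 3.62 FPKM. Genes called higher were 3.04% of those tested and genes called lower were 4.23%. Egr1 (1.09, adjusted p = 0.337), Jund (0.32, 0.463) and Fos (-0.05, 0.964) did not pass. The interval of the Fos difference, -1.195 to 1.09, was wide enough to include a change of 2-fold in either direction. Its error was shared by the tissues (SE 0.52 in each), so the spread of Fos in the retina also went into this interval.

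These pineal calls differed in how much they rested on 1 library. The Btg2 call held without each of the 12 libraries in turn and was lost in 1 of 22 alternatives, when ZT15 was grouped with the dark (1.14, adjusted p = 0.312), its adjusted p running from 0.000171 to 0.312 over all alternatives. The Jun call was lost in 9 of the 22, among them without pineal ZT19 (-0.51, adjusted p = 0.197) and pineal ZT13 (-0.93, 0.0571), and under both other scalings (-0.74 and -0.76), with adjusted p from 0.00344 to 0.348. The Junb call was lost in 6 of the 22, among them without pineal ZT7 (0.86, adjusted p = 0.113), ZT19 (0.91, 0.168) or ZT23 (1.00, 0.0729), with adjusted p from 0.00605 to 0.334. The median of all genes was -0.12 in this contrast, so that relative to it Btg2 stood at 1.59, Junb at 1.08 and Jun at -0.77. Of the genes called, 41.8% were higher, and 61.0% were under quantile normalization and 65.7% under median ratio scaling.

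In the retina 0 of the 6 tested members passed in the late dark. A single gene of 10416 did (0.0096%), Ptpn20, a protein tyrosine phosphatase gene named here after its value was seen. At an unadjusted p under 0.05 there were 1238 genes (11.9%), with 3 members among them. Egr1 differed by 3.96 (SE 0.68, 95% interval 2.45 to 5.47, adjusted p = 0.116), with 20.9 ± 23.1 FPKM in the light (SD, n = 3) and 234 ± 91.0 FPKM in late dark (SD, n = 2). This was the largest increase among all genes tested. Fos differed by 2.15 (SE 0.52, adjusted p = 0.237), with 9.17 ± 9.02 and 36.0 ± 15.5 FPKM. Junb differed by 1.24 (SE 0.23, adjusted p = 0.138), with 6.79 ± 2.62 and 16.9 ± 2.76 FPKM. Jun (0.03), Jund (0.16) and Btg2 (-0.22) had smaller differences.

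Here too retina ZT1 decided the call. Without it Egr1 rose by 4.82 (adjusted p = 0.00278), Fos by 2.84 (0.00369) and Junb by 1.50 (0.00664), 3 of 6 members where 0.712% of 10390 genes were called (0.375% higher). Their adjusted p ran from 0.00163 to 0.964 for both Egr1 and Fos and from 0.00545 to 0.964 for Junb over all alternatives. The ZT1 library also had the second highest lens sum. When the retina libraries of ZT1 and ZT19 were left out together, Egr1 differed by 4.42 (adjusted p = 0.0571), Fos by 2.39 (0.0571) and Junb by 1.35 (0.125), and none passed. These values lay below those without ZT1 alone. Without retina ZT19 alone, the most lens-rich library, they were 3.55 for Egr1, 1.71 for Fos and 1.09 for Junb (adjusted p = 0.964 each). The part of lens tissue in these results was not tested.

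**Figure D4:**
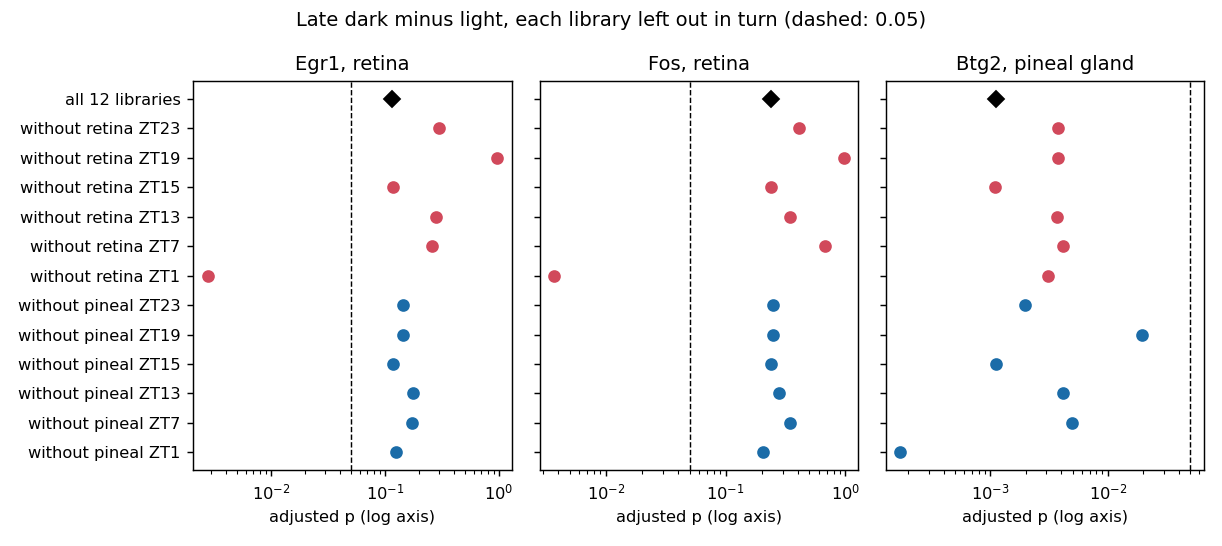
Adjusted p (log axis) of late dark minus light for retinal Egr1, retinal Fos and pineal Btg2 with all 12 libraries (diamond) and with each library left out; the dashed line is 0.05. Retinal Egr1 and Fos cross the line only without retina ZT1, at 0.00278 and 0.00369, and Btg2 stays on one side throughout.

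Without testing, the order of the libraries can be read from the levels. All 3 dark retina libraries lay above the 3 light ones for Fos and Egr1 among the tested members (1.44% of all genes tested), and for Junb as well when ZT15 was set aside (4.74%). All 3 dark pineal libraries lay above light for Junb and Btg2 (3.54%), and Egr1 joined them when ZT15 was set aside (9.74%). Pineal late dark lay below light for Jun, an order shared by 31.5% of all genes, and all 3 dark retina libraries lay below light for Btg2, shared by 14.1%.

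The late dark effects of both tissues were then compared directly. Btg2 differed, the retinal effect being lower than the pineal effect by a log2 difference of -1.69 (SE 0.25, adjusted p = 0.0142), and it was 1 of 6 members called where 0.71% of all genes were (0.566% in that direction). Every late dark pineal library lay above light and every late dark retina library lay below it. This call was lost in 8 of 21 alternatives, among them without pineal ZT19 (-1.49, adjusted p = 0.0644), retina ZT7 (-1.65, 0.0647), retina ZT19 (-1.71, 0.105) or retina ZT23 (-1.66, 0.0873), with adjusted p from 0.00123 to 0.993 over all alternatives. The difference was 2.87 for Egr1 (adjusted p = 0.250), 2.20 for Fos (0.243), 0.92 for Jun (0.215), 0.29 for Junb (0.827) and -0.16 for Jund (0.936). Without retina ZT1 Egr1 (3.73, adjusted p = 0.0285) and Fos (2.89, 0.0138) passed with the larger effect in the retina, where 0.481% of genes were called, and without pineal ZT23 Jun did (1.304, 0.0217).

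**Figure D5:**
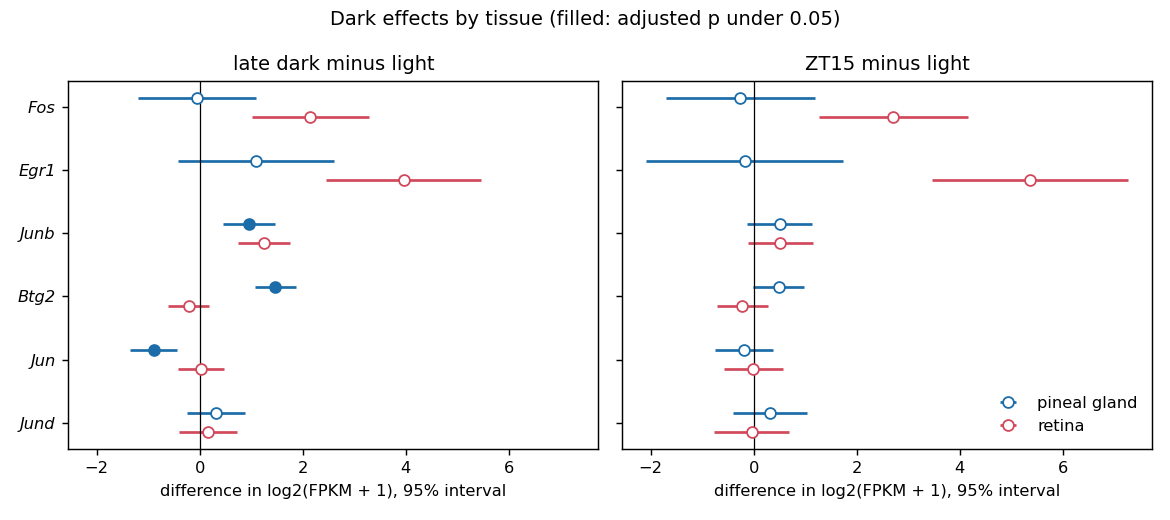
Difference from light in log2(FPKM + 1) with its 95% interval for late dark (left) and for ZT15 (right), in the pineal gland (blue) and the retina (red); filled points have an adjusted p under 0.05. Filled points are pineal Junb, Btg2 and Jun in late dark, and the open points of retinal Egr1 and Fos lie farthest to the right.

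Genes around the members were read from lists. In the pineal late dark 7.28% of all genes passed by limma and 26% were under 0.05 before adjustment. In the retinal late dark 0.0096% passed and 11.9% were under 0.05 before adjustment, so a retinal count of 0 says little about a list. Of 9 tested genes for other AP-1 and partner bZIP factors, 0 passed in the late dark in either tissue by limma (3 pineal and 1 retinal test were under 0.05 before adjustment), with a pineal median of -0.04 and a retinal median of -0.06, against -0.12 and -0.11 for all genes. Of 3 genes for Egr partners and corepressors, 0 passed in either tissue (0 and 1 before adjustment). Of 21 genes that induce immediate early genes, such as kinases and CREB and serum response factor genes, 1 was lower in the pineal gland. That is near the 4.23% of all genes called lower there. It was Rps6ka5, a kinase gene (-0.41, limma adjusted p = 0.0490), and 6 of the 21 were under 0.05 before adjustment. In the retina 0 passed (1 before adjustment).

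Other immediate early genes were called in the pineal late dark, and 3 of 25 differed between the tissues when the difference itself was tested, as 0.71% of all genes did. Of the 25, 10 were higher and 1 was lower in the pineal late dark, where 3.04% and 4.23% of all genes were, and their median was 0.53 against -0.12 for all genes. Sik1, a salt-inducible kinase gene, rose by 4.31 (adjusted p = 1.69e-05), and Dusp1, which encodes a phosphatase of MAP kinases, rose by 3.64 (4.36e-05). Gadd45b, a stress-response gene, rose by 1.99 (0.000797), and Ppp1r15a, which encodes a regulatory subunit of protein phosphatase, rose by 0.99 (0.00102). In the retina 0 of the 25 passed by limma, where 0.0096% of all genes did, so this count does not show that they stayed level. Before adjustment 8 of the 25 were under 0.05, against 11.9% of all genes, and their median was 0.10 against -0.11. The effect was lower in the retina than in the pineal gland for Sik1 (-4.17, adjusted p = 0.000571), Dusp1 (-2.60, 0.0113) and Gadd45b (-1.98, 0.0186). At ZT15 limma called 0% of all genes in either tissue, so none of these lists held a called gene. Before adjustment 2 of the 25 in the retina and 0 in the pineal gland were under 0.05. Of 6 heat shock and handling stress genes, 2 were called higher in the pineal late dark, where 3.04% of all genes were. These were Dnajb1 (0.99, limma adjusted p = 0.0101) and Hspa1a (1.203, 0.0320). The other 4 did not pass, among them Hspb1 (-0.79, 0.127) and Hmox1 (-0.02, 0.969). Before adjustment 5 of the 6 were under 0.05 there, against 26% of all genes, and 3 of the 6 were at pineal ZT15, against 4.18%. Their pineal late dark median was 0.82 against -0.12 for all genes. The pineal sum of the 6 was 188, 114 and 149 FPKM at ZT1, ZT7 and ZT13, and 191, 233 and 245 FPKM at ZT15, ZT19 and ZT23, so that ZT1 in the light and ZT15 in the dark were close. The part of handling in the pineal rises was not tested. In the retina that sum stayed between 111 and 140 FPKM and 0 of 6 passed by limma (0 before adjustment).

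The time courses of some members were alike within a tissue, given here as Pearson correlations of log2(FPKM + 1) over 6 libraries that share their depth and composition. In the retina r was 0.975 for Fos with Egr1 and 0.858 for Fos with Junb. Pineal r was 0.952 for Junb with Btg2, 0.881 for Egr1 with Btg2 and, running in opposite directions, -0.864 for Jun with Egr1. Jund was like no other member, with a highest r of 0.427 (with Junb, pineal gland) and 0.304 (with Junb, retina). Likeness over all 12 libraries was ranked among 5735 genes that varied at least 2-fold, with all members left out. In that ranking the gene most like Egr1 was Ier2, an immediate early gene (r = 0.949), followed by Wfikkn1 (0.821), Gpd1 (0.817), Mobkl1a (0.814) and Mafg (0.782). Retinal Ier2 was at 15.7 FPKM at ZT1, 12.5 at ZT7, 10.6 at ZT13, 31.9 at ZT15, 26.0 at ZT19 and 21.5 at ZT23. All 3 dark libraries were on top, but Ier2 was picked for its likeness to Egr1 in these libraries, so this is no separate case. Ier2 was also most like Fos (0.716), ahead of Rnf24 (0.698), Ngp (0.660), Plk4 (0.632) and Ppef2 (0.617). Rnf24, Ngp and Plk4 were weakly expressed, with highest levels of 1.44, 2.09 and 1.75 FPKM. Over 12 libraries r takes in the level of each tissue as well as the time course. The genes most like Junb were Mafg (0.903), Josd1 (0.890), Gins2 (0.879), Ptpn20 (0.878) and Ankrd52 (0.874). Mafg encodes a small MAF protein, a bZIP factor.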

How the data were processed

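Polyadenylated RNA of the pools was fragmented, copied with random primers and read as paired ends, per the labels' protocols. Strandedness is not given in the sources used here, which leaves a member and any overlapping opposite-strand gene inseparable. TopHat 1.3.1, Cufflinks 1.2.0 and build rn4 are named in the submitters' processing notes. The deposited values were FPKM per transcript, calculated by the authors, and no counts were used. FPKM was summed per gene ID over 16932 transcripts, which gave 16472 genes, and each member had a single transcript. Genes that reached 1 FPKM in 2 or more of the 12 libraries were fitted on the log2(FPKM + 1) scale in R 4.3.3 by limma 3.58.1 (moderated with a trend, two-sided, Benjamini-Hochberg threshold 0.05). The fit had 6 means (light, ZT15 and late dark in each tissue) and 6 error degrees of freedom, and a second fit had 1 mean per tissue. The single ZT15 library of a tissue was assumed to vary like the others. The fit was tested on simulated data. Mixed pools were described by value. Coordinates are from the deposited table, printed counting from 1.

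The members, lists and tests were chosen with earlier results of these data known. Named genes were all members and up to 4 genes of each other list with the smallest p among those past the threshold. The 5 genes most like each of Fos, Junb and Egr1, with members left out, were also named. The labels do not say whether pineal glands and retinas of a time came from the same animals. Alternatives were another pseudocount, other filters, quantile normalization, median ratio scaling, each tissue alone, ZT15 grouped with the dark, time as a block, and each library left out. Leaving out retina ZT1 with ZT19, or ZT19 or ZT1 of both tissues, was added after seeing the data. Promoter windows came from RefSeq (GRCr8).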

Additional observations from a re-analysis of the deposited data

Results flagged for a closer look

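Btg2 was the 1 tested member whose late dark effect differed between the tissues by a test of the difference itself. The effect in the retina was lower than that in the pineal gland by a log2 difference of -1.69 (SE 0.25, limma adjusted p = 0.0142). In 12 groups of 6 libraries, 1 for each tested member and tissue, no library stood far enough from the others to be singled out.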

How the results depend on the processing

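Of 864 results for single members under an alternative, 787 kept their direction and their side of the threshold, 25 lost a call, 29 gained one and 23 changed sign. The number of members called in the pineal late dark (3 of 6) became 1 with no filter on low values, 0 with ZT15 grouped with the dark and 1 without ZT19 of both tissues, and ran from 1 to 3 with single libraries left out. In the retinal late dark (0) it became 3 without ZT1 of both tissues and ran from 0 to 3. For the difference between tissues in late dark (1) it was 0 with no filter, 0 with ZT15 grouped with the dark, 0 without ZT19 of both tissues and 3 without ZT1 of both tissues, and ran from 0 to 3. For ZT15 in the retina (0) it was 2 without retina ZT1 and ZT19 together and 2 without ZT1 of both tissues, and ran from 0 to 2. For the tissue difference at ZT15 (0) it was 2 and 2 under the same omissions and ran from 0 to 1. For the tissues over the day (1) it was 3 with no filter, 2 under quantile normalization, 0 without retina ZT1 and ZT19 together and 3 without ZT19 of both tissues, and ran from 1 to 3. The counts with no filter also take in Egr2, Egr3 and Arc, which were too low to be tested otherwise. None of the 6 tested members gained a call over the day with no filter, so the added calls lay among those weakly expressed members. Time of day as a replicate block gave 2, Egr1 and also Junb (-0.45, adjusted p = 0.00733). Pineal and retinal libraries of the same time deviated together with r of 0.0491 to 0.270, and 2 of 6 times matched best with their own time. The block is therefore given only as an alternative.

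Signs changed for Fos, Jun, Jund and Junb in the comparisons given here, where no difference as reported had passed. Fos in the pineal late dark was 0.0319 under quantile normalization, 0.0829 under median ratio scaling and 0.126 without ZT1 of both tissues (-0.172 to 0.126 with single libraries left out), and over the day it was 0.0138 without retina ZT1 and ZT19 together (-0.773 to -0.0844). Jund ran from -0.220 to 0.857 in the pineal late dark, from -0.694 to 0.383 for the late dark difference, from -0.105 to 0.0676 at ZT15 in the retina (0.0255 under quantile normalization and 0.0178 under median ratio scaling) and from -0.0138 to 0.212 over the day (-0.0236 under quantile normalization). Jun ran from -0.0245 to 0.0624 in the retinal late dark and from -0.0575 to 0.0295 at ZT15 in the retina, where it was 0.0650 under quantile normalization, 0.0498 under median ratio scaling, 0.0121 without retina ZT1 and ZT19 together and 0.0121 without ZT1 of both tissues. The ZT15 difference of Junb was -0.0032 with a pseudocount of 0.1 and ran from -0.155 to 0.270.

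Over all genes, calls ran from 0 to 1600 in the pineal late dark (758 as reported), 0 to 104 in the retinal late dark (1), 0 to 384 for the late dark difference (74), 0 to 21, 0 to 3 and 0 to 3 for the pineal gland, the retina and their difference at ZT15 (0 each), and 5525 to 8747 over the day (7559). The cause of these changes was not tested. With 1 library per tissue and time, no single-time value has an error of its own, and levels under 0.1 FPKM rest on few fragments.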
